A study of Mus musculus with 6 samples.

Results

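Expression of 10 BMP response genes, of the 22564 features in the expression table, was followed in mouse foreguts mutant for Gli2 and Gli3 and in double heterozygous controls. The genes were chosen by name as reported targets of the BMP signal, not by a limit on their values. They comprise Id1, Id2, Id3 and Id4, whose products lack a DNA-binding domain and hold basic helix-loop-helix factors off DNA, the inhibitory Smads Smad6 and Smad7, the receptor-regulated Smad Smad9, the pseudoreceptor Bambi, which blunts BMP and TGF-beta receptors, and the homeobox repressors Msx1 and Msx2.

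BMP ligands bind a pair of serine/threonine kinase receptors, which then phosphorylate Smad1, Smad5 and Smad9. These enter the nucleus with Smad4 and switch on a small set of genes in most tissues that see the signal, so the RNA of those genes is widely read as a gauge of BMP activity. In the embryonic foregut, BMP from the septum transversum and the splanchnic mesoderm is known for its part in inducing the liver and in patterning the organ buds along the gut tube.

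Foreguts were dissected from E9.5 mouse embryos of mixed strain, 1 embryo to a library, and sequenced in bulk. There were 3 Gli2-/-;Gli3-/- mutants with 19, 22 and 21 somites (mutants 1, 2 and 3) and 3 Gli2+/-;Gli3+/- controls with 19, 24 and 21 somites (controls 1, 2 and 3). The methods describe the controls as littermates, while the reporting summary of the study speaks of separate litters for control and mutant embryos, and only the 19-somite embryos share the leading digits of their names in the labels. Gli2 and Gli3 carry the Hedgehog signal to the nucleus, so the question was what foregut cells express without them, and the controls themselves lack 1 copy of each gene. No wild-type foregut is among these libraries. Expression is given in TPM (a share of the library corrected for transcript length, with the same total in each library), which keeps no read depth, so the error given is the spread between embryos.

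The genotype was first checked on the Hedgehog pathway. Gli1, a direct target of Gli2 and Gli3, had 4.49, 2.30 and 1.44 TPM in mutants against 37.77, 21.57 and 28.61 TPM in controls (log2 fold change −3.07, SE 0.36, limma adjusted p = 0.0722). RNA of the mutated genes themselves was still measured, with Gli2 at 27.5 ± 9.5 TPM in mutants and 21.1 ± 4.4 TPM in controls (SD, n = 3 each). Gli3 was at 75.0 ± 21.8 TPM in mutants and 106 ± 25 TPM in controls. Endoderm markers were present in every library, with Epcam at 87.72, 74.42 and 105.46 TPM in mutants and 82.98, 78.54 and 67.19 TPM in controls. Foxf1 is a defining gene of splanchnic mesoderm, and the study also lists it among the Hedgehog-regulated factors lower in these mutants. It stood at 23.68, 4.25 and 21.64 TPM in mutants against 118.44, 72.65 and 73.05 TPM in controls (log2 fold change −2.60, limma adjusted p = 0.523). Vim, which that mesoderm also expresses, was at 276 to 363 TPM in mutants and 179 to 241 TPM in controls. The libraries had 18646 to 19282 features above 0, and features named only by a database accession took 23.5 to 36.1% of the TPM in mutants and 34.6 to 43.9% in controls. Both 19-somite libraries stood apart from the other 4 on the first principal component, which held 45.3% of the variance.

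Promoter sequences are shown for Msx1 and Smad9, the 2 members with the lowest fold changes in mutants. Both are the 250 bases before the RefSeq start on GRCm38.p6, written 5′ to 3′ on the gene's strand, with capitals for the Smad-binding letters GGCGCC (the GC-rich element) and GTCT or its complement AGAC (the Smad box).
Msx1, chr5:37824586-37824835, minus strand: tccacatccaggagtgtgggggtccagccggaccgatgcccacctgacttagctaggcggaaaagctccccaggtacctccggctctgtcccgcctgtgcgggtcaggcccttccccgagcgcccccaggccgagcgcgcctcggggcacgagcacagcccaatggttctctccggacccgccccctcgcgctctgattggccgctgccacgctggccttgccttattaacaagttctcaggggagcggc
Smad9, chr3:54755332-54755581, plus strand: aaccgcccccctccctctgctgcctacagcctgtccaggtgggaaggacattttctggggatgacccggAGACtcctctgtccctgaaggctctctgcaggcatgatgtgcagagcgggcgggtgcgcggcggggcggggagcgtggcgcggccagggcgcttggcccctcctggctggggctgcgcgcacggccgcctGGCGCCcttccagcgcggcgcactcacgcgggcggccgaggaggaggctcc
The Smad9 window held 1 GGCGCC, 51 bases before the start, and 1 Smad box, while the Msx1 window held neither. Of 32851 RefSeq promoters of the same length searched on both strands, 9.59% held GGCGCC and 82.9% held GTCT. The Gli letters GACCACCCA, found in 0.225% of those promoters, were in neither window. RefSeq promoters were matched for 7 of the 10 members.

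The 10 genes differ in where they sit and in how securely they can be counted. In mm10 with GENCODE M21, Id1 lies on chr2 (152736251 to 152737410, plus strand), Id2 on chr12 (25093799 to 25097140, minus strand) and Id3 on chr4 (136143497 to 136145755, plus strand). Id4 lies on chr13 (48261228 to 48266026, plus strand), the chromosome that also carries Msx2 (53466884 to 53473074, minus strand). The Smad genes are on 3 chromosomes, Smad6 on chr9 (63953076 to 64022059, minus strand), Smad7 on chr18 (75367529 to 75395935, plus strand) and Smad9 on chr3 (54755582 to 54801257, plus strand). Bambi is on chr18 (3507923 to 3516404, plus strand) and Msx1 on chr5 (37820485 to 37824583, minus strand). Exons of Id4 share 82 bases with A330033J07Rik and 171 bases with Gm49291 on the opposite strand, and since the library kits do not mark strand, reads there cannot be told apart. A processed copy, Bambi-ps1, has a row of its own in the table, so Bambi reads may be split between both.

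Levels of the 10 genes spanned a wide range. Id3 had the highest mean over the 6 libraries at 132 TPM, followed by Id2 at 71.4 and Id1 at 26.8 TPM, and this order held in all 6 libraries. Only between Id2 and Id1 did the ranges of neighbours not overlap. Msx2 (9.44 TPM), Bambi (8.43), Smad9 (7.19) and Smad6 (6.88) came next, each above the next in 3, 4 and 4 of 6 libraries, so their order was not separable from their spread. Smad7 (3.63 TPM) was below Smad6 in all 6 libraries, and Id4 (2.55 TPM) and Msx1 (1.50 TPM) were lowest. The 4 Id genes together made 343, 172 and 199 TPM in mutants and 375, 137 and 170 TPM in controls, of which Id3 took 61.1, 50.2 and 53.8% in mutants and 60.4, 49.1 and 55.7% in controls. The other 6 members together made 30.3, 41.8 and 27.2 TPM in mutants and 35.5, 46.3 and 41.3 TPM in controls.

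None of the 10 BMP response genes was called between mutants and controls. All 10 entered the test at a mean of at least 1 TPM, and fold changes are given on the log2(TPM + 1) scale. A call needed both a limma adjusted p up to 0.1 and a log2 fold change no smaller than 1 in either direction. Of all 14606 genes tested, 0.0274% were called lower and 0.0137% higher, 4 and 2 genes, and with rescaling to the features that carry a gene symbol 13 and 3. The adjusted p was 0.999 for each of the 10. At an unadjusted limma p under 0.05, 2 members were lower (Msx1 and Smad9) and 0 higher, where 1.01% of all genes were lower and 3.07% higher. Groups did not overlap for 1 member, Msx1, which was lower, against 1.68% of all genes lower and 6.68% higher. The members' median log2 fold change was −0.05, with 4 above 0 and 6 below, and the median over all genes tested was 0.11. Other scalings brought the median of all genes to between −0.015 and −0.0046 and that of the members to between −0.19 and −0.17.

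**Figure D1:**
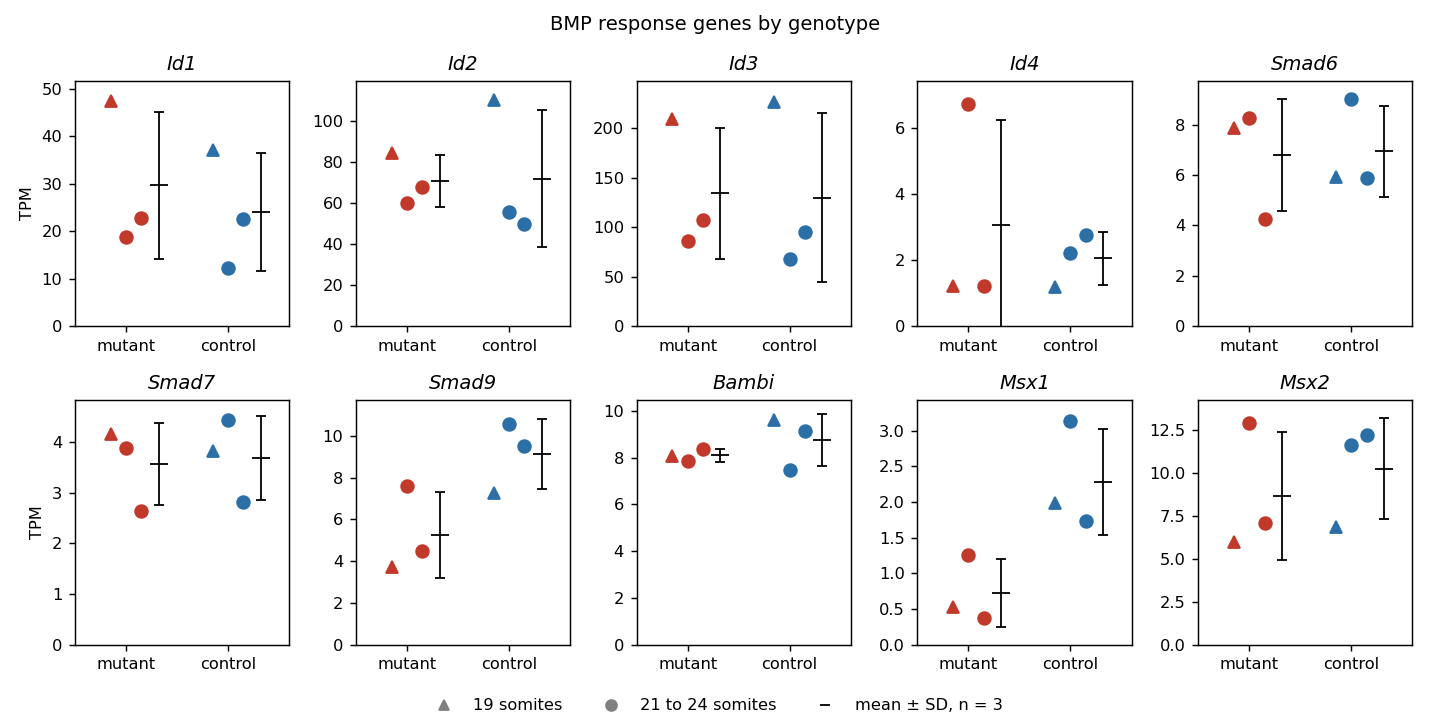
TPM of each BMP response gene in the 3 mutant and 3 control foreguts, 1 point an embryo (triangles, 19 somites; circles, 21 to 24 somites), with the mean and SD of each genotype drawn as a bar beside the points. The Msx1 points of the mutants (at most 1.26 TPM) lie below those of the controls (at least 1.73 TPM), and the other 9 genes overlap. The lower SD bar of mutant Id4 is clipped at 0.

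Msx1 had the lowest fold change of the 10. Its homeodomain protein is a repressor that BMP induces in many embryonic tissues. Msx1 was at 0.52, 1.26 and 0.37 TPM in mutants against 1.99, 3.13 and 1.73 TPM in controls. Every mutant was below every control, and the mean was 0.717 ± 0.476 TPM in mutants and 2.28 ± 0.74 TPM in controls (SD, n = 3 each), 3.19-fold higher in controls. On the log2(TPM + 1) scale, which shrinks differences at such low levels, the fold change was −0.95 (SE 0.34, 95% interval −1.74 to −0.15), rank 169 from the bottom of 14606 genes. It was −1.65 with a pseudocount of 0.1 and −0.35 with a pseudocount of 5. Libraries of the same somite number gave nearly the same difference, −0.98 at 19 somites and −0.99 at 21 somites, and the pair numbered 2, with 22 and 24 somites, gave −0.87. In whole foreguts, fewer cells of a type and less RNA per cell cannot be told apart. Of the 3 markers that define splanchnic mesoderm, Foxf1 and Pdgfra, the second at 54.10, 41.62 and 53.96 TPM in mutants against 79.18, 79.80 and 72.42 TPM in controls, were also lower in every mutant, and Vim was higher, with none of the 3 called. Foxf1 is itself among the Hedgehog-regulated factors that the study reports as lower, so its level cannot gauge the amount of mesoderm. The part of these 3 markers in the Msx1 and Smad9 values was not tested.

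Msx2, which acts beside Msx1 in many BMP-responsive tissues, was at 5.98, 12.91 and 7.05 TPM in mutants and 6.86, 11.63 and 12.21 TPM in controls. Mutant 2 was the highest of all 6 libraries and mutant 1 the lowest, so the groups overlapped throughout. The log2 fold change was −0.25 (SE 0.34, 95% interval −1.04 to 0.54).

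Smad9 encodes the receptor-regulated Smad that is itself raised by BMP in several cell types. Smad9 RNA was at 3.70, 7.58 and 4.49 TPM in mutants against 7.29, 10.58 and 9.52 TPM in controls. Mutant 2 overlapped control 1, and the other 2 mutants were below all controls. The mean was 5.26 ± 2.05 TPM in mutants and 9.13 ± 1.68 TPM in controls (SD, n = 3 each), 1.74-fold higher in controls, with a log2 fold change of −0.73 (SE 0.30, 95% interval −1.43 to −0.03). The difference was −0.82 at 19 somites, −0.94 at 21 somites and −0.43 in the pair numbered 2. With the replicate number as a block, Smad9 had a limma adjusted p of 0.384 and Msx1 of 0.423, and none of the 10 was called, against 30 of all genes.

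The inhibitory Smads had log2 fold changes near 0. Smad6, which blocks the BMP Smads, had 7.88, 8.29 and 4.25 TPM in mutants and 5.93, 9.04 and 5.89 TPM in controls (log2 fold change −0.05, 95% interval −0.77 to 0.67). Smad7, which blocks BMP and TGF-beta receptors alike, had 4.17, 3.88 and 2.64 TPM in mutants and 3.82, 4.45 and 2.81 TPM in controls (log2 fold change −0.04, 95% interval −0.70 to 0.61). Both groups covered much the same range for each gene. Bambi varied least of the 10, with a coefficient of variation of 9.61% over the 6 libraries. Its levels were 8.09, 7.84 and 8.38 TPM in mutants and 9.61, 7.48 and 9.15 TPM in controls (log2 fold change −0.09, 95% interval −0.60 to 0.41). For Smad6, Smad7, Bambi and Id2, the interval stayed within 1 log2 unit of 0 on both sides.

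The 3 abundant Id genes varied more between embryos of 1 genotype than between genotypes. Id1 had 47.42, 18.87 and 22.71 TPM in mutants and 37.07, 12.25 and 22.64 TPM in controls (log2 fold change 0.31, SE 0.46, 95% interval −0.75 to 1.37). Id2 had 84.72, 59.92 and 67.87 TPM in mutants and 110.33, 55.45 and 49.95 TPM in controls (0.06, SE 0.32, −0.69 to 0.80). Id3 had 209.71, 86.25 and 106.79 TPM in mutants and 226.69, 67.36 and 94.88 TPM in controls (0.14, SE 0.49, −1.0 to 1.27). In each of the 3 genes the first library of either genotype, at 19 somites, was the highest. Without the replicate block the intervals of Id1 and Id3 reach past a log2 fold change of 1. With the block they were −0.08 to 0.70 for Id1 and −0.17 to 0.45 for Id3. The differences of same-numbered libraries were 0.35, 0.58 and 0.0043 for Id1, in the order of the numbers, and −0.11, 0.35 and 0.17 for Id3. Under scaling by median of ratios, Id2 was at −0.09 and Id3 at −0.01, so the signs of both depend on the scaling.

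Id4 was low in 5 of the 6 libraries, at 1.22 and 1.20 TPM in mutants 1 and 3 and 1.18, 2.21 and 2.76 TPM in controls 1, 2 and 3. Mutant 2 stood apart at 6.71 TPM, and the log2 fold change of 0.17 (SE 0.53, 95% interval −1.05 to 1.40) became −0.43 without it. The summed TPM of 10 neural tube markers was 12.6, 60.9 and 7.37 in mutants and 13.2, 7.79 and 5.86 in controls, so it too was highest in mutant 2, where Pax6, the most abundant of them, was at 25.46 TPM against at most 3.72 TPM elsewhere. Of the 10 markers, 5 passed the filter, Sox1 and Olig2 only through mutant 2, and none of these 5 was called. Nkx2-2 alone was not highest in mutant 2, at 0.07 TPM there and 2.05 TPM in control 1. Sox2, also on the list, is a marker of esophagus and stomach endoderm in the study. Whether neural tissue had a part in the Id4 value was not tested.

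**Figure D2:**
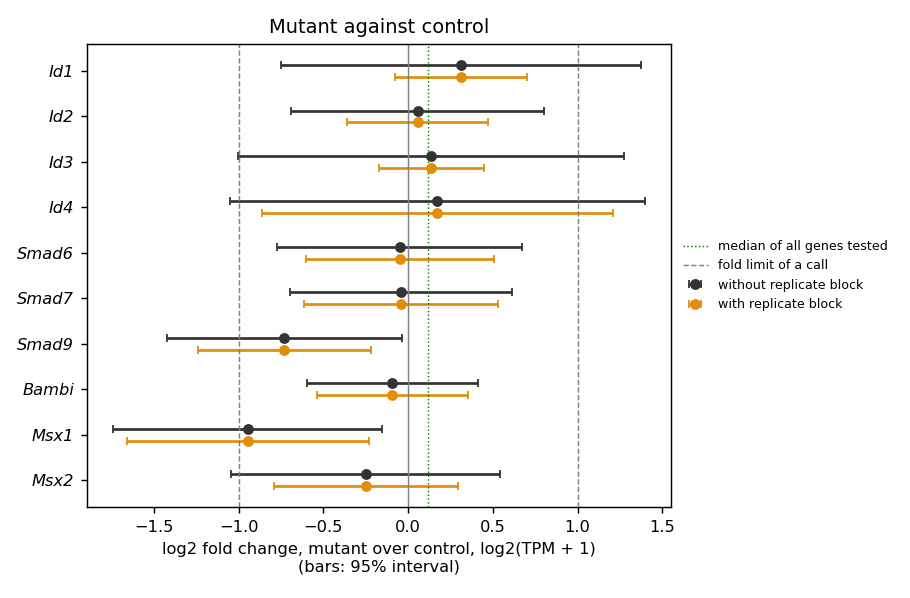
Fitted log2 fold change, mutant over control on the log2(TPM + 1) scale, of each BMP response gene with its 95% interval, without (black) and with (orange) the replicate number as a block; dashed lines mark the fold needed for a call and the dotted line the median of all genes tested. Only the intervals of Smad9 and Msx1 leave out 0, on the lower side, in both fits.

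Since Id1, Id2 and Id3 were highest at 19 somites, and Id4 was not, the 21- to 24-somite libraries were compared with the 19-somite libraries, with genotype kept in the fit. That comparison was chosen after the values were seen. Each stage group held both genotypes, 4 libraries against 2, and the shared leading digits of the 19-somite embryos' names set apart the same 2 libraries, so stage, litter and any batch cannot be told apart. Id1 averaged 19.1 TPM at 21 to 24 somites and 42.2 TPM at 19 somites, 2.21-fold higher at 19 (log2 fold change −1.13, SE 0.24, limma adjusted p = 0.0257). Id3 averaged 88.8 TPM at 21 to 24 somites and 218 TPM at 19 somites, 2.46-fold higher at 19 (−1.31, SE 0.19, limma adjusted p = 0.0115). Both were called lower at 21 to 24 somites. Id2 averaged 58.3 TPM at 21 to 24 somites and 97.5 TPM at 19 somites, and its log2 fold change of −0.73 (limma adjusted p = 0.0375) was under the fold limit.

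Among all genes, 7.41% were called lower and 2% higher at 21 to 24 somites, 1083 and 292 genes, and with rescaling to the features that carry a gene symbol 743 and 620. Of the 10 members, 2 were called lower and 0 higher. Groups did not overlap for 3 members lower (Id1, Id2 and Id3) and 1 higher (Msx2), where 23.1% of all genes were lower and 20.4% higher. Id1, Id2 and Id3 prompted this comparison, so the members' lower counts cannot be read as an excess over all genes. With so few members, no difference from all genes was tested. Id1 and Id3 were no longer called without mutant 1 (limma adjusted p = 0.299 and 0.227) or without control 1 (0.249 and 0.195). Their fold changes stayed near the full fit, at −1.11 and −1.49 without mutant 1 and −1.16 and −1.12 without control 1. Either fit has 1 library at 19 somites, which is assumed to vary like the others, and 7 and 13 genes in all were called lower in them. Id1 also fell short of the fold limit, at −0.96, without control 2.

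Msx2 went the other way, with 12.91 and 7.05 TPM in mutants 2 and 3 and 11.63 and 12.21 TPM in controls 2 and 3 at 21 to 24 somites, against 5.98 and 6.86 TPM in the 19-somite mutant and control (log2 fold change 0.66, limma adjusted p = 0.118). Id4 (0.78), Smad9 (0.48), Msx1 (0.19), Bambi (−0.10), Smad7 (−0.19) and Smad6 (−0.04) were not called by stage, with limma adjusted p-values of 0.216 to 0.940. Without mutant 3, Id4 was called higher (1.15, limma adjusted p = 0.0891). Heart muscle markers, as a sum, were also highest in the 19-somite library of each genotype. The summed TPM of 11 cardiomyocyte markers was 1280 and 337 in mutants 2 and 3 and 457 and 314 in controls 2 and 3, against 1815 and 869 in the 19-somite mutant and control, and 6 of the 11 were called by stage with a list median of −1.55. Actc1, the most abundant of them, was at 190.02 to 680.56 TPM in the libraries of 21 to 24 somites and at 651.71 and 356.99 TPM in those of 19 somites, and none of the 11 was at 0 in all 6 libraries. Their part in the Id levels was not tested.

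**Figure D3:**
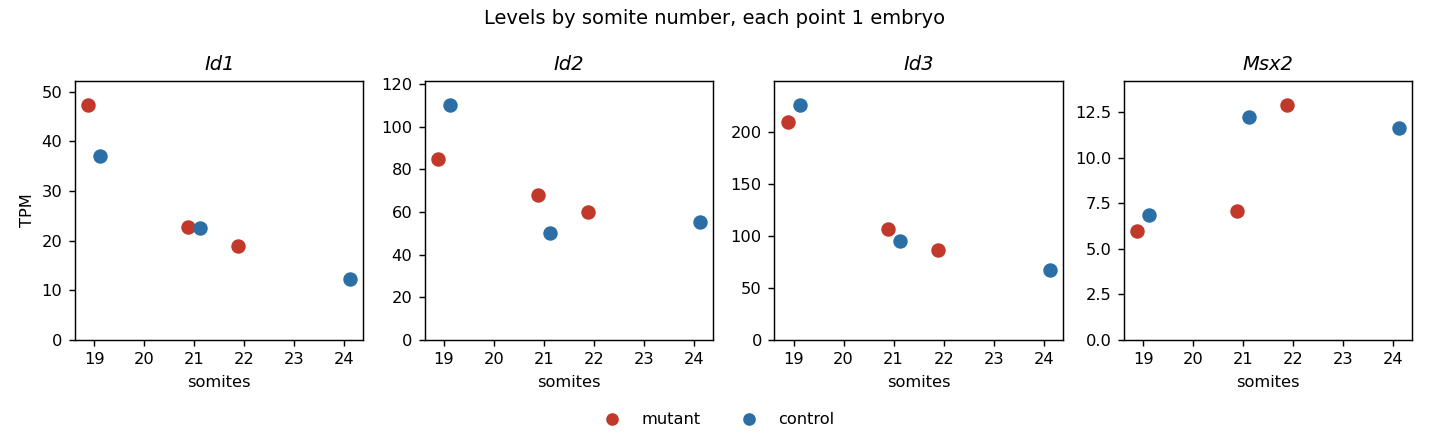
TPM of Id1, Id2, Id3 and Msx2 against the somite number of each embryo, mutants in red and controls in blue, points shifted slightly sideways. Id1, Id2 and Id3 are highest in both 19-somite embryos (for Id3, 209.71 and 226.69 TPM, against at most 106.79 TPM later), and Msx2 is lowest there.

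The genes around the members in the pathway were set beside them from lists of pathway genes, a few of which share a gene. Among BMP ligands, 9 were tested and none was called, with 2 lower and 1 higher at an unadjusted limma p under 0.05 and a median log2 fold change of −0.12. Bmp4, the main BMP ligand of splanchnic and septum transversum mesoderm, was at 57.37, 102.19 and 61.97 TPM in mutants against 109.19, 171.23 and 158.40 TPM in controls, and every mutant was below every control (log2 fold change −1.0, limma adjusted p = 0.863). Gdf6, a BMP family ligand, was at 10.93, 11.30 and 13.43 TPM in mutants against 5.05, 3.25 and 4.08 TPM in controls (log2 fold change 1.34, limma adjusted p = 0.279). The groups of Gdf6 did not overlap either, with mutants above controls. Markers of mesothelium and septum transversum also differed by genotype, with 8 of the 10 tested higher and 1 lower at an unadjusted limma p under 0.05, the same 8 above and 1 below without overlap, and a median log2 fold change of 1.47. Of these, Upk3b was called, at 17.83, 20.10 and 15.57 TPM in mutants against 3.28, 1.73 and 2.07 TPM in controls (log2 fold change 2.51, limma adjusted p = 0.0528). The sum of the 11 markers was 412, 330 and 426 TPM in mutants and 307, 365 and 358 TPM in controls, with Aldh1a2, the most abundant, at 218.17, 117.85 and 227.12 TPM in mutants and 140.99, 208.87 and 217.29 TPM in controls. Their part in the values of Msx1, Bmp4, Gdf6 and the antagonists was not tested.

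All 10 receptors and co-receptors tested were uncalled, with 8 above 0 and a median of 0.22. Eng, a co-receptor best known from endothelium, was at 13.25, 14.53 and 8.58 TPM in mutants and 5.41, 5.42 and 4.24 TPM in controls (log2 fold change 1.10, limma adjusted p = 0.626), and Acvrl1, the receptor it partners there, was at a log2 fold change of 0.54 and uncalled. The summed TPM of 9 endothelial markers was 210, 243 and 159 in mutants and 105, 130 and 111 in controls, with 9 of 9 above 0, a median log2 fold change of 0.80 and 0 called (3 at an unadjusted limma p under 0.05), and Cdh5, the most abundant, was at 52.46, 86.39 and 58.01 TPM in mutants and 28.27, 57.34 and 34.99 TPM in controls. Their part in the Eng value was not tested.

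Of the 3 Smad transducers none was called or had an unadjusted limma p under 0.05. Smad5 had a log2 fold change of 0.11 and Smad4, the shared partner, of 0.09. The 10 intracellular regulators gave the same counts with a median of 0.11, the ubiquitin ligase Smurf1 at 0.40 and the Smad corepressor Ski at 0.26. The 3 basic helix-loop-helix partners of Id proteins had a median of 0.08, with Tcf12 at 0.13 and Tcf4 at −0.08, and none was called.

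Secreted antagonists, which bind BMP outside the cell, held the 2 genes with the highest fitted fold changes of these pathway lists, though none of the 12 tested was called without the block. At an unadjusted limma p under 0.05, 2 were lower and 4 higher. Grem1 was at 17.54, 35.66 and 54.63 TPM in mutants against 4.42, 7.18 and 14.79 TPM in controls, with every mutant above every control (log2 fold change 1.92, SE 0.50, limma adjusted p = 0.706). With the replicate block, Grem1 was called higher (limma adjusted p = 0.041). Fst, which binds activin and some BMPs, was at 11.88, 19.09 and 5.62 TPM in mutants against 2.30, 1.57 and 3.61 TPM in controls (log2 fold change 1.82, SE 0.44, limma adjusted p = 0.601). The groups of Fst did not overlap.

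Other reported BMP targets were also uncalled. Of the 14 tested, 0 were lower and 3 higher at an unadjusted limma p under 0.05, with 7 below and 7 above 0 and a median of −0.08. Atoh8, a basic helix-loop-helix factor, was at 11.37, 14.23 and 10.23 TPM in mutants against 3.94, 6.16 and 7.24 TPM in controls (log2 fold change 0.95, limma adjusted p = 0.863), above controls in every mutant. Hey1, a target of Notch as well as BMP, was at 35.11, 45.02 and 35.00 TPM in mutants against 16.68, 22.42 and 31.19 TPM in controls (log2 fold change 0.72, limma adjusted p = 0.999). Groups did not overlap for 3 of these 14, Atoh8, Hey1 and Prdm1, all higher in mutants, and for 0 lower, where 6.68% of all genes were higher and 1.68% lower. In the TGF-beta response list, 7 genes were tested, 0 lower and 2 higher at an unadjusted limma p under 0.05. Tgfbi was at 15.79, 11.65 and 13.83 TPM in mutants against 4.51, 3.04 and 4.50 TPM in controls (log2 fold change 1.56, limma adjusted p = 0.209), and was called higher with the replicate block (limma adjusted p = 0.0773). Ctgf had a log2 fold change of 0.75.

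By stage, 4 genes of these 8 lists were called, where 7.41% of all genes were called lower and 2% higher at 21 to 24 somites. Bmpr2, the type II BMP receptor, was at 72.55 and 69.27 TPM in mutants 2 and 3 and 80.62 and 65.31 TPM in controls 2 and 3, against 28.26 and 31.90 TPM in the 19-somite mutant and control (log2 fold change 1.23, limma adjusted p = 0.00802). Grem1 was higher at 21 to 24 somites too (1.18, limma adjusted p = 0.0402). Dlx5, a homeobox factor, was higher (1.75, limma adjusted p = 0.0774) and Hand1, a basic helix-loop-helix factor of heart and lateral mesoderm, was lower (−1.87, limma adjusted p = 0.0624). Dlx5 was at 17.59 TPM in mutant 2 and 0.39 to 3.89 TPM in the other 5 libraries, and Hand1 at 28.80 TPM in control 1 and 1.28 to 8.91 TPM in the other 5.

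**Figure D4:**
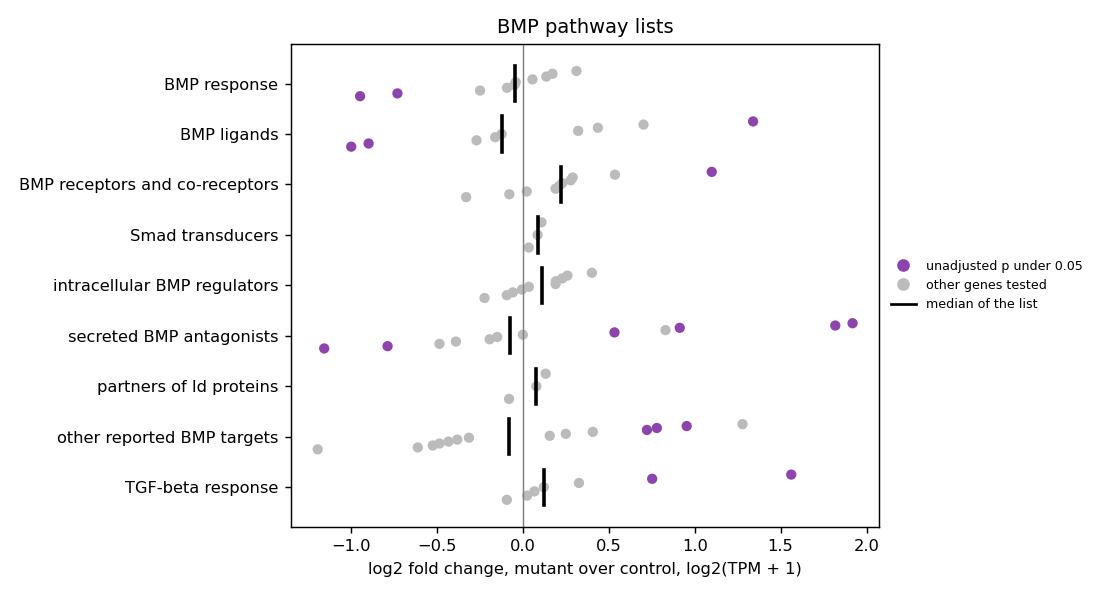
Fitted log2 fold change, mutant over control on the log2(TPM + 1) scale, of every tested gene in the BMP response list and 8 related lists, 1 point a gene, with the list's median as a black bar and genes at an unadjusted limma p under 0.05 in purple. Of the BMP response genes Msx1 and Smad9 are purple, on the lower side, while most purple points of the antagonists, other targets and TGF-beta response lie on the higher side.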

How the data were processed

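Polyadenylated RNA of 6 foreguts was amplified with the SMART-Seq v4 kit and made into Nextera XT libraries. The study's methods state alignment to mm10 in the CSBB pipeline. Which quantifier and annotation it ran is not given in the sources used here. TPM were deposited by the authors, from which depth cannot be recovered, so a rise in abundant features lowers all others. The study used RUVSeq on counts, so values were instead transformed to log2(TPM + 1) and 14606 of 22564 features with a mean of at least 1 TPM went into limma 3.58.1 under R 4.3.3 (moderated test, trend, two-sided, Benjamini-Hochberg), after the code was tested on simulated data. Calls used the limits of the study's methods, 0.1 for the adjusted p and 1 for the size of the log2 fold change. A figure legend of the study gives 0.05 for the adjusted p instead. From counts, the study reported many more regulated genes than were called here, so few calls here do not mean few differences. With 3 against 3 embryos an exact test of 1 gene reaches p = 0.1 at best.

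Members and lists were chosen with earlier results of these data known. Named were all members, every gene of the BMP lists called by genotype or by stage, the 2 genes of each list with the smallest p, defining foregut markers and the most abundant gene of a marker list set beside a member. The remaining BMP ligands and targets are covered by counts. Deviations of same-numbered libraries from their group means correlated at 0.67, 0.37 and 0.15, and both libraries numbered 3 correlated better with the other genotype's number 2 (0.24). Both libraries numbered 1 stood apart on the first principal component, and deviations within a group of 3 offset each other. The correlations therefore cannot show that the number pairs libraries, and the replicate number was used as a block only as an alternative. What a number marks is not in the labels, the sources do not settle whether same-numbered embryos were littermates, and numbers 1 and 3 share a somite count. Alternatives were pseudocounts of 0.1 and 5, a filter at 5 TPM or none, a limit of 0.05 for the adjusted p, 3 other scalings, somite number as covariate, the block, array weights, robust shrinkage and leaving out libraries.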

Additional observations from a re-analysis of the deposited data

How the results depend on the processing

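The BMP response genes had 0 calls between genotypes under all 19 alternatives, with 0 to 2 of them at an unadjusted limma p under 0.05, and their median log2 fold change was below 0 under each but the one without mutant 3 (0.10). TPM keeps no read depth, so its limits on low members such as Msx1 are unknown. Of 187 member values under the alternatives, 167 kept their direction and 20 changed sign, all uncalled and all of Id1, Id2, Id3, Id4, Smad6 or Smad7. The filters, the limit of 0.05, the replicate block and robust shrinkage leave a member's fitted fold change as it was. Values under those settings could not change sign, so their share of the 167 says nothing about stability. Id2 was −0.086 with median-of-ratios scaling, −0.031 with quantile normalization, −0.094 rescaled without accession-named features and −0.0595 with somite number as covariate. Id3 was −0.00604 with median-of-ratios scaling, −0.014 rescaled and −0.103 with somite number. Leaving out 1 library gave −0.081 to 0.680 for Id1, −0.16 to 0.41 for Id2, −0.24 to 0.63 for Id3, −0.43 to 0.48 for Id4, −0.20 to 0.21 for Smad6 and −0.18 to 0.11 for Smad7. With a mean of at least 5 TPM only 7 members were tested, without Id4, Smad7 and Msx1. Genes called lower and higher in mutants were 4 and 2, against 2 and 1 without a filter, 1 and 0 when filtered at 5 TPM (369 genes at an unadjusted limma p under 0.05), 2 and 1 with a limit of 0.05 for the adjusted p, 14 and 13 with somite number, 16 and 14 with the replicate block and 16 and 10 with array weights. The lower count was 7 with median-of-ratios scaling, 9 with quantile normalization and 13 rescaled. Leaving out 1 library gave 0 to 6 lower and 0 to 2 higher, with 0 and 0 without control 2 or control 3 (445 and 561 genes at an unadjusted limma p under 0.05), and leaving out both 19-somite libraries gave 0 and 0 (626). The replicate block changed no call among the members. By stage, 1083 genes were lower and 292 higher. Those were 542 and 85 with a pseudocount of 5, the higher count was 454 with quantile normalization and 620 rescaled, and leaving out 1 library gave 7 to 1325 lower and 1 to 398 higher. Members called by stage, 2 lower and 0 higher, were 1 lower with a pseudocount of 5 (Id1 at −0.99) and rescaled (Id1 at −0.96), and 0 to 2 lower and 0 to 1 higher (Id4, without mutant 3) without 1 library. Id1 was −1.31 to −0.96 and Id3 −1.49 to −1.12 by stage when leaving out 1 library. The cause of these changes was not tested.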
